A study of Mus musculus with 16 samples.

Results

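The genes described here make, move and sense cholesterol in splenic B cells of NOD.LT mice, the strain that develops autoimmune diabetes. They number 32 of the 39179 genes of the count table and were chosen by symbol, 31 under the symbol used here and 1, Msmo1, listed under its older symbol Sc4mol and matched by its identifier ENSMUSG00000031604. Apart from Gpr155 they form a textbook list of the pathway, and Gpr155 was added because it differs between diets in these same libraries, so its levels are described and not tested. All 32 passed the filter on low counts, which 15021 genes of the table passed.

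At 15 weeks of age the mice had been on 1 of 4 diets, eaten freely, for 5 weeks, and the labels name the diets HAMSA, HAMSB, HAMS and NP. HAMS is known in this field as high-amylose maize starch, a dietary starch that reaches the large bowel, HAMSA as its acetylated form and HAMSB as its butyrylated form. NP, the comparison diet, is taken to be the one that the description of the feeding calls Gordons. Each diet had 4 libraries, all from B cells that were enriched by removing other spleen cells (negative selection with a pan-B cell kit), with stranded libraries of poly(A) RNA. The labels carry a number per library (HAMSA 1, 2, 3 and 6, HAMSB 1, 2, 5 and 6, HAMS 1, 4, 5 and 6, NP 1, 3, 4 and 5) but do not tie a library to an animal. The design text gives both N = 4 and triplicates, so p-values measure the spread between these libraries.

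Cells build cholesterol from acetyl-CoA through mevalonate and farnesyl diphosphate to squalene, which is closed to lanosterol and trimmed to cholesterol in the endoplasmic reticulum. When sterols run low there, SCAP carries the SREBP transcription factors to the Golgi for cleavage and the genes of synthesis are transcribed, while the INSIG proteins hold SCAP back when sterols are plentiful. When oxysterols build up, LXR transcription factors raise the exporters ABCA1 and ABCG1 and the ubiquitin ligase MYLIP. Cholesterol taken up with lipoproteins leaves the lysosome through NPC2 and NPC1, and GPR155, also called LYCHOS, is a lysosomal membrane protein that senses it and acts on mTORC1.

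Library totals were 15053965 to 30723337 reads counted on genes on HAMSA and 31707731 to 46206200 on the other 3 diets, of which 24759 to 91226 fell on the 32 genes. Levels are given as CPM, counts for each 1000000 reads of the library total after scaling by TMM factors, which lay between 0.944 and 1.03. The share of the listed reads that fell outside exons was 9.76% to 12.1% on HAMSA, 12.6% to 16.9% on HAMSB, 11.2% to 16.4% on HAMS and 13.95% to 15.5% on NP. The 8 B cell markers looked at summed to between 12344 and 15874 CPM in all libraries. Markers of other cells were present at lower levels and moved between diets. Their values on HAMSB, HAMS and NP stand beside the results they accompany. On HAMSA, all 11 erythroid and all 8 neutrophil markers had a higher mean than on each other diet. Erythroid sums were 361 to 3438 CPM there, beside 63.0 to 964, 92.4 to 127 and 76.3 to 802 CPM on HAMSB, HAMS and NP. Neutrophil sums were 68.3 to 290 CPM, beside 37.7 to 224, 4.59 to 101 and 7.77 to 56.5 CPM. The part of these cells in the HAMSA levels was not tested. In whole preparations such as these, fewer cells of a type and less RNA per cell cannot be told apart.

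Per kilobase of exon, the highest mean levels over the 16 libraries were those of a ligase, transcription factors and carriers, namely Mylip at 57.0 RPKM (CPM per kilobase), Nr1h2 (LXR beta) at 49.999 RPKM, Srebf2 at 39.5 RPKM, Abca1 at 26.4 RPKM and Npc2 at 20.97 RPKM. The lowest were Nr1h3 (LXR alpha) at 0.612 RPKM and Idi1, the isopentenyl diphosphate isomerase, at 0.555 RPKM, the only members under 1 RPKM, resting on 8 to 122 and 9 to 106 reads a library. In all, 9 of 32 were over 10 RPKM, and 13 of 32 when length was that of the longest transcript, which also put Nr1h2 above Mylip. Within libraries, the level per length of Srebf2 was 1.79 to 3.09 times that of Srebf1 (median 2.03), and that of Insig2 was 1.29 to 2.08 times that of Insig1 (median 1.57). The widest gap between related genes was that of the LXR receptors, Nr1h2 being at 35.2 to 415 times the level per length of Nr1h3 (median 75.6).

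**Figure D1:**
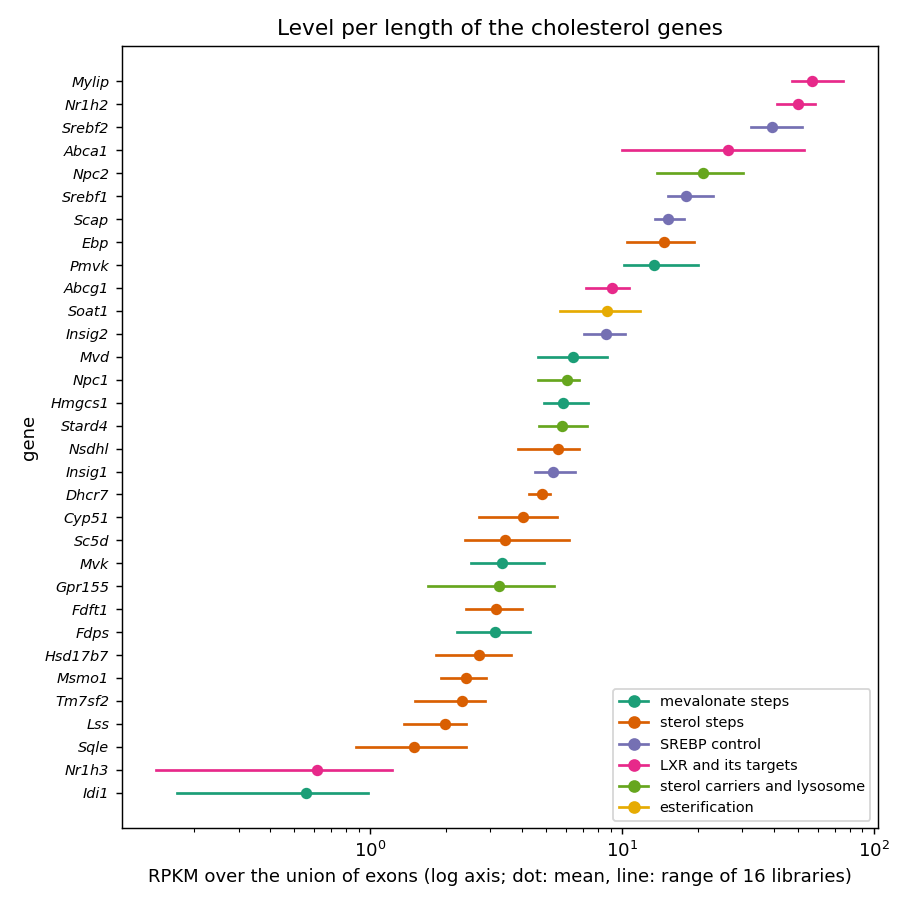
Level per length of the 32 genes over all 16 libraries, in RPKM on a log axis, ordered by the mean (dot), with the line from the lowest to the highest library and the colour giving the role. Mylip, Nr1h2 and Srebf2 lie at the top (57.0, 49.999 and 39.5 RPKM), while Nr1h3 and Idi1 are under 1 RPKM.

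**Figure D2:**
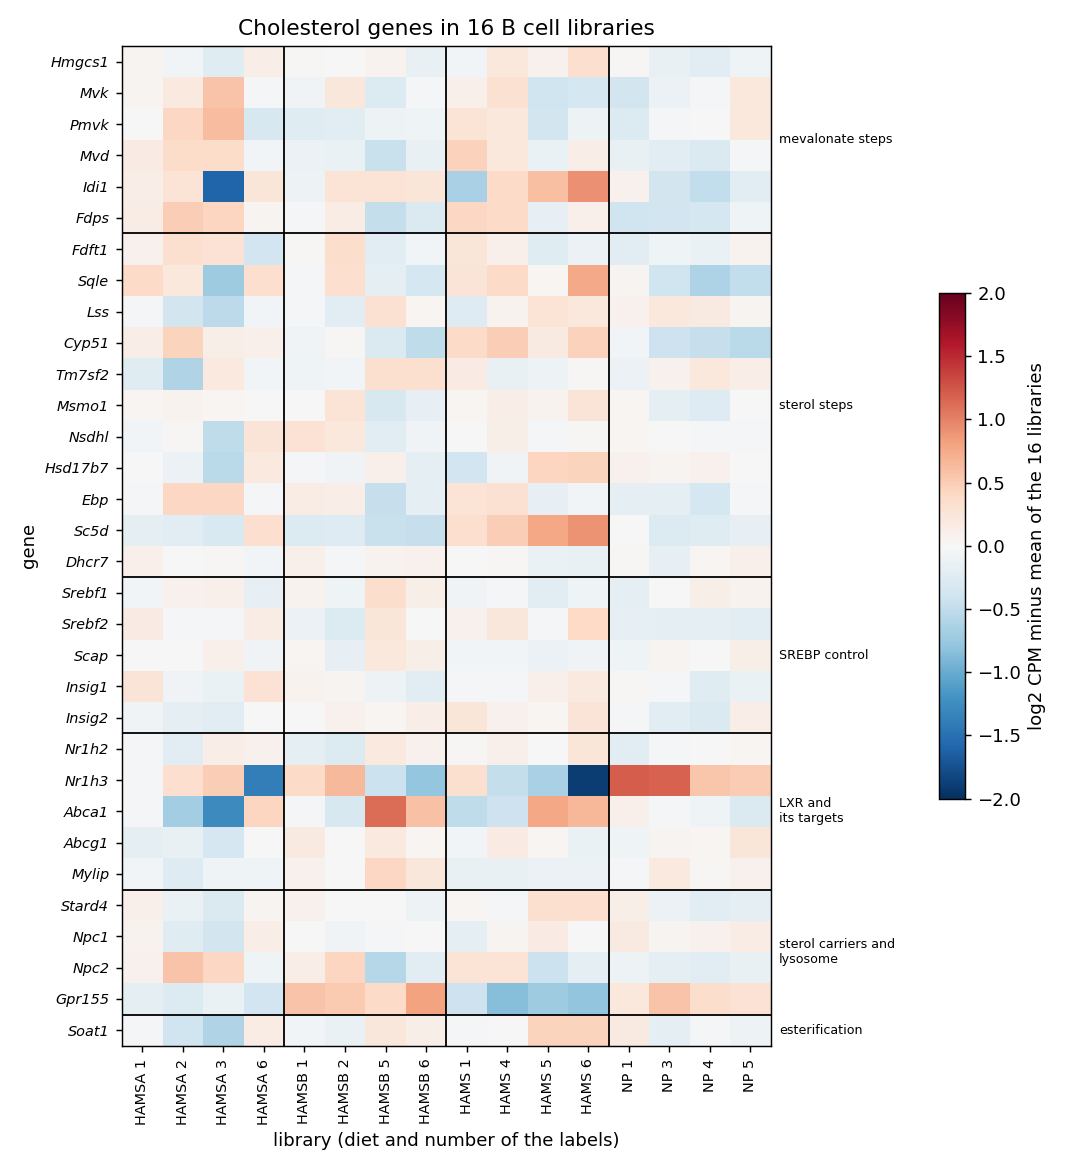
Log2 CPM of each gene (rows, in the order of the pathway) in each library (columns, by diet and number), minus the gene's mean over the 16 libraries. Red is above and blue below that mean, with Sc5d and Cyp51 red in the HAMS libraries, Gpr155 blue there, and Abca1 and Nr1h3 spread widely within diets.

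Differences between diets were tested for all 15021 genes together with edgeR's quasi-likelihood test and Benjamini-Hochberg adjustment, and a gene was called at an adjusted p under 0.05. Across the 31 tested genes, 2 were called: Sc5d and Cyp51, both enzymes of the late pathway. Both were lower on HAMSB than on HAMS, where 2 of 31 (6.45%) were called, both lower, against 1.68% of all genes in either direction and 1.24% lower. Both were higher on HAMS than on NP, where 2 of 31 were called against 4.33% of all genes in either direction and 2.27% higher. They were also the 2 of 31 with an adjusted p under 0.05 for any difference among the 4 diets (0.0039 for Sc5d, 0.0139 for Cyp51), against 3.78% of all genes. No member was called in the other 4 comparisons, for which the background was 0.779% for HAMSA against HAMSB, 0% for HAMSA against HAMS, 0.0732% for HAMSB against NP and 1.41% for HAMSA against NP. At an unadjusted p under 0.05 these 4 comparisons held, in the same order, 5, 4, 0 and 7 of 31 members, beside 19.4%, 11.7%, 6.89% and 25.1% of all genes. In them DESeq2 called 1 member (Mylip), 1 (Sc5d), 0 and 2 (Fdps and Cyp51) at its adjusted p, and limma called 0. Over all 15021 genes DESeq2 called 576, 103, 124 and 1295 in the same order.

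Sc5d encodes lathosterol oxidase, which introduces a ring double bond in the last steps before cholesterol. It was ENSMUSG00000032018, on chromosome 9 from 42251595 to 42264256 on the minus strand (GRCm38, GENCODE M21; the build the authors mapped to is not given in the sources used here). It had 14.1, 13.7, 12.9 and 20.3 CPM on HAMSA, 13.3, 13.4, 11.8 and 11.6 CPM on HAMSB, 20.2, 22.4, 27.2 and 29.9 CPM on HAMS, and 15.96, 13.2, 13.5 and 14.3 CPM on NP. All 4 HAMS libraries were above all 4 HAMSB and all 4 NP libraries, and only HAMSA 6 of the HAMSA libraries reached the lowest of them. The means were 12.5 ± 0.939 CPM on HAMSB and 24.9 ± 4.40 CPM on HAMS (SD, n = 4 each), a log2 fold change of -0.99 ± 0.15 (SE, edgeR, adjusted p 0.00272). That is 1.99-fold lower on HAMSB. HAMS was also 1.75-fold higher than NP, which had 14.3 ± 1.23 CPM (SD, n = 4; log2 0.81 ± 0.15 SE, edgeR, adjusted p 0.0069). HAMSA, at 15.2 ± 3.39 CPM (SD, n = 4), had a log2 fold change of -0.71 ± 0.15 (SE) against HAMS, with an edgeR adjusted p of 0.300. Without HAMSA 6, Sc5d passed in that comparison as well, the count of called members then being 1 in place of 0. That fit called 26 of all 15289 genes tested.

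Cyp51 encodes the lanosterol demethylase, which takes the first carbon off the closed sterol rings. It was ENSMUSG00000001467, on chromosome 5 from 4081145 to 4104746 on the minus strand. Its levels were 18.9, 23.5, 18.7 and 18.5 CPM on HAMSA, 16.5, 17.6, 14.2 and 12.2 CPM on HAMSB, 22.4, 24.3, 19.6 and 23.9 CPM on HAMS, and 16.6, 12.9, 12.6 and 11.9 CPM on NP. The HAMS libraries again lay above all HAMSB and NP libraries, but unlike Sc5d the HAMSA libraries were also above both of those diets. Cyp51 was 1.49-fold lower on HAMSB than on HAMS (15.1 ± 2.42 against 22.6 ± 2.12 CPM, SD, n = 4 each; log2 -0.58 ± 0.14 SE, edgeR, adjusted p 0.0446). It was 1.67-fold higher on HAMS than on NP, which had 13.5 ± 2.12 CPM (log2 0.74 ± 0.14 SE, edgeR, adjusted p 0.00723). HAMSA, at 19.9 ± 2.42 CPM, had a log2 fold change of 0.56 ± 0.14 (SE) against NP with an adjusted p of 0.0561 and of 0.40 ± 0.14 (SE) against HAMSB with an adjusted p of 0.172 (edgeR). Without HAMSA 6 both Cyp51 and Fdps passed between HAMSA and NP, 2 members in place of 0, and without NP 1 Cyp51 alone passed. Of all genes, these fits called 589 of 15289 and 203 of 15264.

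The call of Cyp51 between HAMSB and HAMS lay near the threshold and was lost without HAMS 1, 4 or 6 or HAMSB 1, 5 or 6, where 1 member in place of 2 was called and the highest adjusted p was 0.14. Within libraries numbered 1 to 4 and within those numbered 5 and 6, the log2 fold change of Cyp51 between HAMSB and HAMS was -0.46 and -0.72, and that of Sc5d -0.68 and -1.29. Between HAMS and NP, they were 0.74 and 0.86 for Cyp51 and 0.58 and 0.99 for Sc5d, where NP 5 was the only NP library of numbers 5 and 6. Of these, Sc5d passed between HAMSB and HAMS in numbers 5 and 6, and both genes passed between HAMS and NP in numbers 1 to 4. 

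Markers of other cells also differed between these diets. All 10 T cell, all 8 neutrophil and all 11 erythroid markers and 7 of 8 NK cell markers had a higher mean on HAMSB than on HAMS. On HAMSB against HAMS their sums were 107 to 311 against 75.6 to 175 CPM, 37.7 to 224 against 4.59 to 101 CPM, 63.0 to 964 against 92.4 to 127 CPM and 12.7 to 65.1 against 12.2 to 20.4 CPM. All 6 platelet and megakaryocyte markers had a lower mean on HAMSB than on HAMS and a higher mean on HAMS than on NP. Their sums were 63.7 to 161 CPM on HAMSB, 96.2 to 223 CPM on HAMS and 57.3 to 171 CPM on NP. Between HAMS and NP, 9 of 10 T cell and all 8 neutrophil markers were higher by mean (sums of 75.6 to 175 against 81.9 to 118 CPM and 4.59 to 101 against 7.77 to 56.5 CPM). In turn, 9 of 11 erythroid markers (92.4 to 127 against 76.3 to 802 CPM) and all 12 macrophage and monocyte markers (140 to 273 against 252 to 554 CPM) were lower. Of all these markers, the neutrophil genes Ly6g and Elane, the NK cell gene Klra8 and the globin gene Hba-a2 were at 0 in some libraries. The part of these cells in the levels of Sc5d and Cyp51 was not tested.

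**Figure D3:**
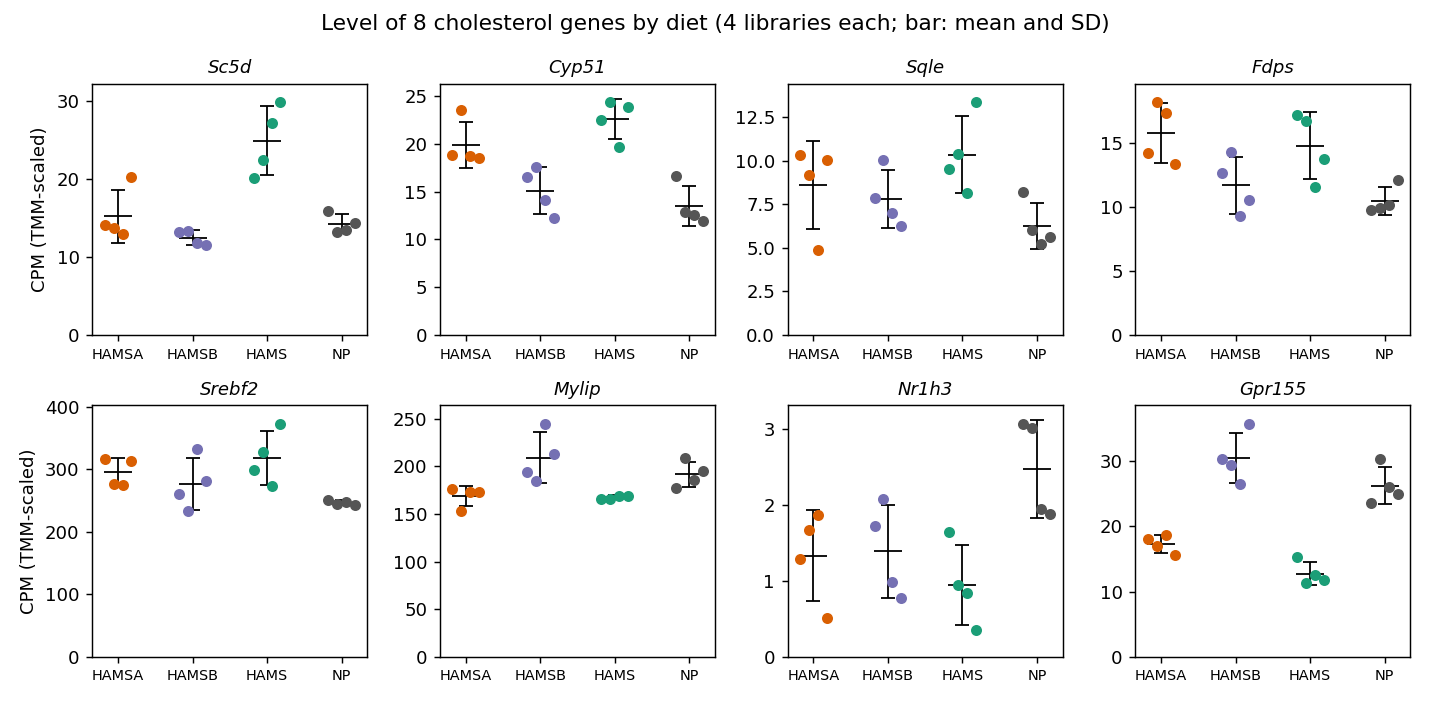
CPM of 8 genes in each library (dots) by diet, with the mean and SD (bars) of 4 libraries and axes that start at 0. Sc5d and Cyp51 are highest on HAMS and Gpr155 is lowest there (24.9, 22.6 and 12.7 CPM on average), and Nr1h3 is highest on NP.

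The starts of Sc5d and Cyp51 are shown because both were called in the same comparisons. Beside them stands that of Hmgcs1, which alone of the 26 members searched held the sterol element as spelled below. That of Gpr155, which was lowest on HAMS, is shown as well. Promoters are the 250 bases before the RefSeq start in GRCm38.p6, read 5′ to 3′ on the gene's strand: chr9:42264301-42264550 (minus) for Sc5d, chr5:4104698-4104947 (minus) for Cyp51, chr13:119690101-119690350 (plus) for Hmgcs1 and chr2:73386481-73386730 (minus) for Gpr155. Capitals mark matches, on either strand, to the sterol regulatory element TCACNCCAC, the E-box CACGTG, the CCAAT box CCAAT and the GC box GGGCGG, where neighbouring GC boxes may overlap.
Sc5d: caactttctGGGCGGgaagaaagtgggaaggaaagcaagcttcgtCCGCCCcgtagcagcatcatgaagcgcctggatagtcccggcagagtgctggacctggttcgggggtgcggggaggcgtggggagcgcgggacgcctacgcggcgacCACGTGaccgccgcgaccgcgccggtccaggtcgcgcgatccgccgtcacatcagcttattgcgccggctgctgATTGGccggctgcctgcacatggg
Cyp51: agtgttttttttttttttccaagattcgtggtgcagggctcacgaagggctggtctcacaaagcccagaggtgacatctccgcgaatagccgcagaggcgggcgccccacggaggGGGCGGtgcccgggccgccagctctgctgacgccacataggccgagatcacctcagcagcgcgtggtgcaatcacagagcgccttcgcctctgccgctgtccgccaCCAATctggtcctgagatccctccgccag
Hmgcs1: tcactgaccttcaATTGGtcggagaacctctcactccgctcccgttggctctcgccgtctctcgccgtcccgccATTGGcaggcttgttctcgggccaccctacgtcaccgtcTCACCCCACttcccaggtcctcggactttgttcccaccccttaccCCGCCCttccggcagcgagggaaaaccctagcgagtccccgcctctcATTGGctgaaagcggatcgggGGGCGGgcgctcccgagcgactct
Gpr155: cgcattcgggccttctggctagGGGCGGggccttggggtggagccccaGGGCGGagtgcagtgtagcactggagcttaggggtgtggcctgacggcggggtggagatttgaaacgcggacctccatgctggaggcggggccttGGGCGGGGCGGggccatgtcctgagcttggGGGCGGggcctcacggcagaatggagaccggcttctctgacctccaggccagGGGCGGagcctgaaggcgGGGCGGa

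In the Sc5d promoter an E-box lay 98 to 93 bases and a CCAAT box 24 to 20 bases before the RefSeq start, with 2 GC boxes. That start lies upstream of the GENCODE end of the gene at 42264256. A short stretch tested some bases downstream of it was not found near the start of any GENCODE transcript of the gene, unlike those of the other 3 genes. The bases directly after each RefSeq start were not tested. All distances in this paragraph hold for the RefSeq starts only. Cyp51 held a CCAAT box 29 to 25 bases and a GC box 135 to 130 bases before its start. GENCODE places the 5′ end of Cyp51 at 4104746, within the window shown, so this CCAAT box lies inside the gene by that annotation. Hmgcs1 held the sterol element 137 to 129 bases before its start with 3 CCAAT and 2 GC boxes, and Gpr155 held 7 GC boxes and no match to the other motifs. GENCODE starts Hmgcs1 downstream of the window shown, at 119690379. By GENCODE, Gpr155 reaches into its window, to 73386572. Its GC boxes 77 to 72, 25 to 20 and 7 to 2 bases before the RefSeq start thus lie inside the gene. RefSeq promoters were found for 26 of the 32 genes, 35 promoters in all. The CCAAT box was in 22 of 35 (62.9%) against 33.8% of all 32851 promoters of that length, the GC box in 25 of 35 (71.4%) against 32.7%, the E-box in 6 of 35 (17.1%) against 6.02%, and the sterol element as spelled in 1 of 35 (2.86%) against 1.05%. These shares describe letters in a window and were given no test. Each motif was searched in 1 spelling, so other forms of the sterol element would be missed. The 6 members without a promoter were not searched.

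Among the 6 genes that lead from acetyl-CoA to farnesyl diphosphate, edgeR called none in any comparison over all 16 libraries. Mvd and Fdps passed between HAMSA and NP and between HAMS and NP when only libraries numbered 1 to 4 were fitted. That subset called 5 of 31 members in each comparison, beside 2694 and 1250 of all 15350 genes tested. Fdps also passed in both comparisons by DESeq2, and by edgeR without HAMSA 6 in the first and without HAMS 5 in the second. Of all genes, DESeq2 called 1295 and 1264 of 15021, and these edgeR fits 589 of 15289 and 703 of 15213. Hmgcs1, the synthase that makes HMG-CoA, had 27.7, 25.6, 22.5 and 29.1 CPM on HAMSA, 27.0, 26.8, 27.8 and 23.8 CPM on HAMSB, 25.4, 30.7, 28.2 and 33.5 CPM on HAMS, and 27.0, 23.8, 22.9 and 24.9 CPM on NP. The diets overlapped throughout, and its log2 fold change was -0.16 between HAMSB and HAMS (95% interval -0.39 to 0.06) and 0.26 between HAMS and NP (95% interval 0.03 to 0.48, edgeR adjusted p 0.180). All 6 had a positive log2 fold change on HAMS against NP, with a median of 0.31 beside 0.01 over all genes, and all 6 had one on HAMSA against NP, with a median of 0.26 beside 0.00. Fdps, which makes farnesyl diphosphate, averaged 15.8 ± 2.33 CPM on HAMSA, 11.7 ± 2.22 CPM on HAMSB, 14.8 ± 2.65 CPM on HAMS and 10.5 ± 1.10 CPM on NP (SD, n = 4 each), with an edgeR adjusted p of 0.0663 for HAMSA and 0.101 for HAMS against NP. Its HAMSA libraries were all above its NP libraries, whereas HAMS and NP overlapped. Mvd, which decarboxylates mevalonate diphosphate, averaged 13.7 ± 1.80, 10.2 ± 1.05, 13.3 ± 2.28 and 10.4 ± 0.757 CPM on HAMSA, HAMSB, HAMS and NP (SD, n = 4 each), and its HAMSA libraries were all above its HAMSB libraries (log2 0.43 ± 0.14 SE, edgeR, adjusted p 0.155). Mvk and Pmvk, the mevalonate and phosphomevalonate kinases, and Idi1 ranged over the libraries from 6.69 to 13.1, from 17.5 to 34.4 and from 0.599 to 3.42 CPM, with overlapping diets.

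Of the 11 genes from the making of squalene onward, Sc5d and Cyp51 were the called ones, and 8 of 11 had a positive log2 fold change on HAMS against NP and 7 of 11 a negative one on HAMSB against HAMS. Sqle, the epoxidase that commits squalene to sterols, had 10.3, 9.19, 4.86 and 10.04 CPM on HAMSA, 7.83, 10.1, 7.01 and 6.24 CPM on HAMSB, 9.49, 10.4, 8.12 and 13.3 CPM on HAMS, and 8.195, 6.0, 5.20 and 5.64 CPM on NP. The lowest HAMS library lay just under the highest NP library, and the log2 fold change was 0.72 ± 0.23 (SE, edgeR, adjusted p 0.0979). Dhcr7, the reductase that finishes cholesterol, varied least within diets of all 32 genes (CV 5.81%, against a median of 13.4% and 42.1% for Abca1), at 28.1 ± 1.34 CPM on HAMSA, 29.0 ± 1.19 CPM on HAMSB, 26.6 ± 1.65 CPM on HAMS and 27.8 ± 2.13 CPM on NP (SD, n = 4 each). Its log2 fold change between HAMSB and HAMS had a 95% interval of -0.05 to 0.30. Lss, which closes the rings of lanosterol, was at 18.03 ± 2.96, 21.6 ± 3.22, 22.4 ± 3.55 and 23.1 ± 1.13 CPM on HAMSA, HAMSB, HAMS and NP (SD, n = 4 each), all HAMSA libraries being below all NP libraries (log2 -0.36, edgeR adjusted p 0.144). Msmo1, Nsdhl and Hsd17b7, which act together to remove methyl groups from the ring, ranged from 11.8 to 17.8, from 11.1 to 19.3 and from 9.32 to 18.5 CPM. Fdft1 (squalene synthase), Tm7sf2 (a sterol reductase) and Ebp (a sterol isomerase) ranged from 10.1 to 16.9, from 6.64 to 12.6 and from 24.2 to 44.5 CPM. edgeR called none of these 6 between any diets over all 16 libraries, and Ebp passed between HAMSA and NP and between HAMS and NP in libraries numbered 1 to 4 only. In that subset 2694 and 1250 of all 15350 genes tested passed, in the same order.

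**Figure D4:**
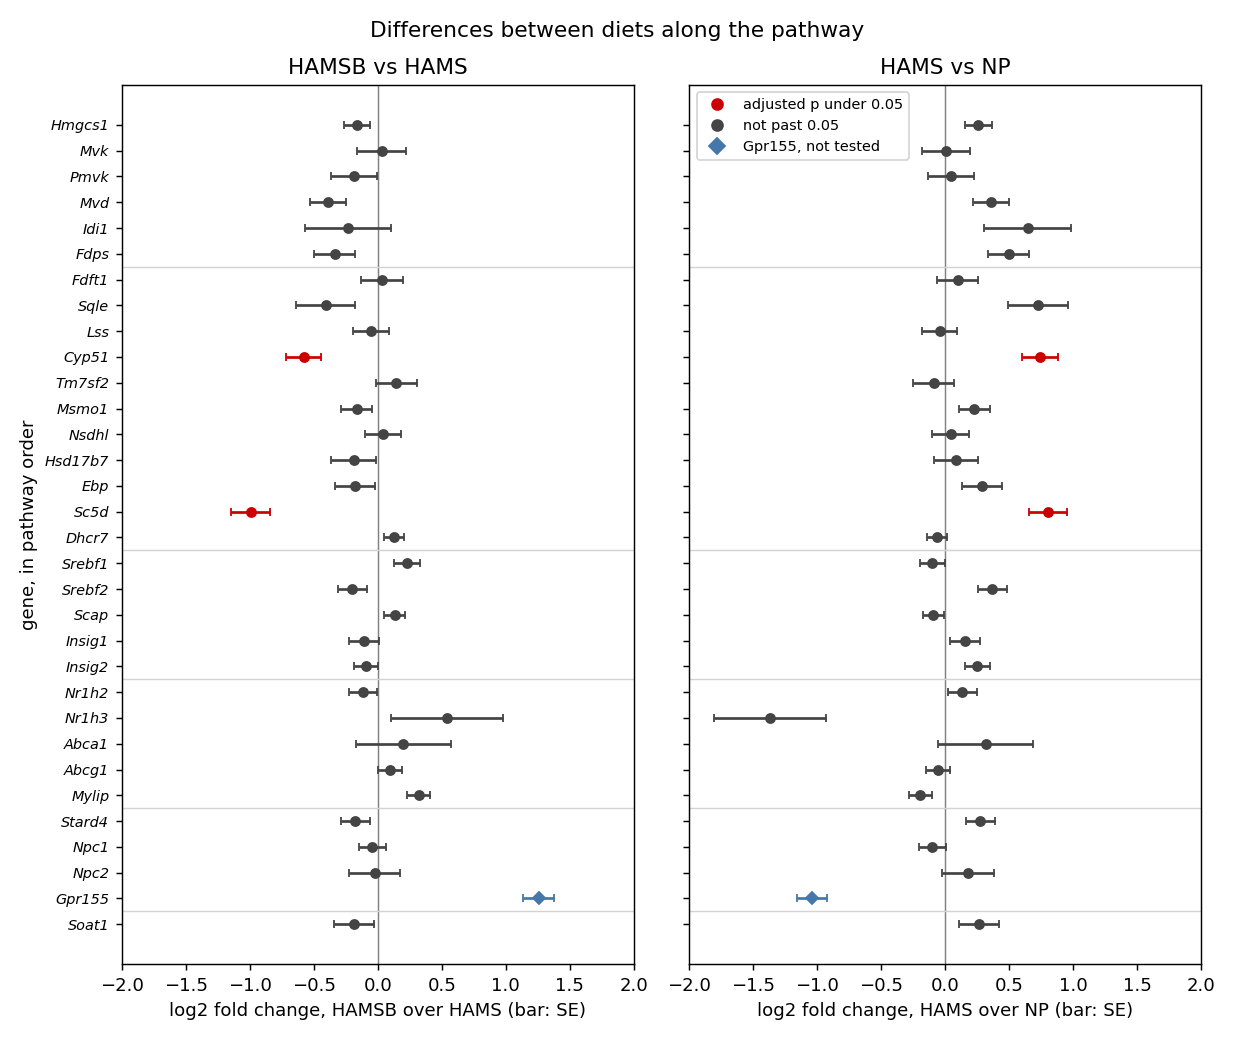
Log2 fold changes of the 32 genes in the order of the pathway, HAMSB over HAMS at the left and HAMS over NP at the right, with SE bars. Red marks an adjusted p under 0.05, which Sc5d and Cyp51 reach in both panels (-0.99 and -0.58 at the left, 0.81 and 0.74 at the right), and the blue diamond is Gpr155, which was not tested.

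With diet alone in the model, edgeR called no gene of SREBP control over all 16 libraries. Srebf2, the SREBP that chiefly drives cholesterol synthesis, had 316, 277, 274 and 313 CPM on HAMSA, 260.0, 234, 331 and 281 CPM on HAMSB, 298, 328, 273 and 372 CPM on HAMS, and 251, 245, 247 and 242 CPM on NP. All HAMS and HAMSA libraries were above the narrow range of the NP libraries, with log2 fold changes of 0.37 ± 0.11 on HAMS (SE, edgeR, adjusted p 0.0800) and 0.26 on HAMSA (adjusted p 0.171). Without HAMS 5, Srebf2 and Fdps passed beside Sc5d and Cyp51 between HAMS and NP, 4 called members in place of 2. That fit called 703 of all 15213 genes tested. Srebf2 also passed between HAMS and NP by DESeq2, and by edgeR with each library's fraction outside exons in the model. These called 1264 and 1157 of all 15021 genes. Srebf1, whose protein chiefly drives fatty acid synthesis, had 96.5, 106, 108 and 90.2 CPM on HAMSA, 106, 95.3, 129 and 109 CPM on HAMSB, 96.2, 99.2, 85.6 and 94.4 CPM on HAMS, and 88.8, 99.7, 109 and 106 CPM on NP. These overlapped, and the log2 fold change between HAMSB and HAMS was 0.23 (95% interval 0.01 to 0.44, edgeR adjusted p 0.307). Insig1, itself a target of the SREBPs, had 19.6, 15.6, 15.0 and 20.2 CPM on HAMSA, 17.2, 17.1, 15.4 and 14.005 CPM on HAMSB, 16.1, 15.97, 17.5 and 18.9 CPM on HAMS, and 16.6, 16.05, 13.9 and 15.0 CPM on NP. It overlapped between all diets, with 95% intervals of -0.36 to 0.15 between HAMSB and HAMS and -0.10 to 0.41 between HAMS and NP. Insig2, the INSIG that the SREBPs do not drive, averaged 27.5 ± 1.87, 31.3 ± 1.18, 33.4 ± 2.53 and 28.1 ± 3.67 CPM on HAMSA, HAMSB, HAMS and NP (SD, n = 4 each), with all HAMSA libraries below all HAMS libraries (log2 -0.28, edgeR adjusted p 0.328). Scap, the escort of the SREBPs, was at 113 ± 5.41, 117 ± 12.9, 107 ± 2.45 and 114 ± 6.89 CPM in the same order of diets.

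edgeR called none of the 5 genes of the LXR branch over all 16 libraries with TMM factors. Mylip and Nr1h3 passed under other settings, given beside their values. Abca1, the exporter that loads cholesterol onto apolipoproteins, had 246, 156, 104 and 340.4 CPM on HAMSA, 249, 201, 547 and 379 CPM on HAMSB, 178, 190.2, 429.9 and 398 CPM on HAMS, and 271, 245, 238 and 207 CPM on NP. It had the largest within-diet CV of the 32 genes, and its 95% interval between HAMSB and HAMS ran from -0.61 to 1.01 on the log2 scale. Abcg1, which exports cholesterol to HDL, had 57.7, 59.5, 52.5 and 66.2 CPM on HAMSA, 75.1, 66.0, 75.8 and 67.6 CPM on HAMSB, 63.6, 73.8, 68.0 and 60.3 CPM on HAMS, and 62.0, 68.8, 68.0 and 78.0 CPM on NP. Its diets overlapped, the HAMSA libraries tending to the low end, with a log2 fold change of -0.27 against HAMSB (edgeR adjusted p 0.175). Within libraries, the level per length of Abca1 was 1.39 to 5.08 times that of Abcg1.

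Mylip, the ligase that marks lipoprotein receptors for degradation, had 176, 153, 173 and 173 CPM on HAMSA, 194, 184, 244 and 213 CPM on HAMSB, 166, 165, 169 and 169 CPM on HAMS, and 177, 209, 186 and 195 CPM on NP. All HAMSB libraries were above all HAMS and HAMSA libraries, which in turn were below all NP libraries. The log2 fold change was 0.32 ± 0.09 against HAMS (SE, edgeR, adjusted p 0.0998), and HAMSA against HAMSB had -0.31 (edgeR adjusted p 0.124). Mylip passed between HAMSB and HAMS by DESeq2 and by edgeR with library totals, and between HAMSA and HAMSB by DESeq2. These called 602, 283 and 576 of all 15021 genes. Nr1h2 averaged 167 ± 17.1, 164 ± 24.7, 178 ± 13.7 and 162 ± 12.4 CPM on HAMSA, HAMSB, HAMS and NP (SD, n = 4 each). Nr1h3, the LXR abundant in macrophages, was at 1.33 ± 0.600, 1.39 ± 0.613, 0.950 ± 0.531 and 2.48 ± 0.648 CPM in the same order, every HAMS and HAMSA library being below every NP library. Its log2 fold change was -1.37 ± 0.44 on HAMS against NP (SE, edgeR, adjusted p 0.0927). It passed there by DESeq2, and by edgeR with the replicate block, with each library's fraction outside exons in the model, or without HAMS 1. In the same order, these called 1264, 378 and 1157 of all 15021 genes and 560 of 15203. All 12 macrophage and monocyte markers had a lower mean on HAMS than on NP, as given above, with none of them at 0 in any library. On HAMSA, 10 of 12 had a lower mean than on NP and 2 a higher one (sums of 247 to 418 against 252 to 554 CPM). The part of these markers' cells in the level of Nr1h3 was not tested.

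Of the carriers and lysosomal genes, Gpr155 was the one that had been chosen for its difference. It is ENSMUSG00000041762, on chromosome 2 from 73341506 to 73386572 on the minus strand. It had 18.03, 16.9, 18.6 and 15.6 CPM on HAMSA, 30.3, 29.4, 26.5 and 35.7 CPM on HAMSB, 15.3, 11.3, 12.5 and 11.8 CPM on HAMS, and 23.6, 30.3, 26.1 and 24.9 CPM on NP. HAMSB and NP shared a range, HAMSA lay below both, and HAMS lay lowest, no library of 1 of these 3 levels reaching into another. By mean it stood at 17.3 ± 1.35 CPM on HAMSA, 30.5 ± 3.82 CPM on HAMSB, 12.7 ± 1.79 CPM on HAMS and 26.2 ± 2.88 CPM on NP (SD, n = 4 each). The fitted log2 fold change was 1.26 for HAMSB against HAMS, 0.44 for HAMSA against HAMS, -0.82 for HAMSA against HAMSB, 0.22 for HAMSB against NP, -0.60 for HAMSA against NP and -1.04 for HAMS against NP. Beside it, Sc5d and Cyp51 were highest on HAMS, the diet on which Gpr155 was lowest; these comparisons share the HAMS libraries.

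Stard4, a carrier that moves cholesterol between membranes, had 34.5, 29.3, 26.1 and 33.4 CPM on HAMSA, 34.1, 31.9, 32.3 and 29.996 CPM on HAMSB, 32.8, 31.5, 40.0 and 40.5 CPM on HAMS, and 34.9, 29.7, 27.3 and 28.03 CPM on NP. HAMS 5 and 6 were above the rest and HAMS 1 and 4 within them, with a log2 fold change against NP of 0.27 (edgeR adjusted p 0.197). Npc1, the lysosomal membrane exporter, had 71.4, 57.5, 52.5 and 74.8 CPM on HAMSA, 68.7, 64.7, 66.2 and 67.7 CPM on HAMSB, 59.4, 70.7, 76.3 and 68.6 CPM on HAMS, and 76.6, 70.3, 72.3 and 75.5 CPM on NP. All HAMSB libraries were below all NP libraries by a small step (log2 -0.14, edgeR adjusted p 0.934), and between HAMSB and HAMS the 95% interval was -0.27 to 0.19. Npc2, the soluble partner that hands cholesterol to Npc1, averaged 134 ± 27.5, 110 ± 32.9, 112 ± 26.4 and 99.4 ± 3.85 CPM on HAMSA, HAMSB, HAMS and NP (SD, n = 4 each), with all HAMSA libraries above all NP libraries (log2 0.43, edgeR adjusted p 0.202). Soat1, which esterifies cholesterol for storage, averaged 73.8 ± 17.03, 87.0 ± 9.98, 99.1 ± 18.2 and 82.6 ± 8.97 CPM in the same order, with a log2 fold change of -0.42 ± 0.16 on HAMSA against HAMS (SE, edgeR, adjusted p 0.356).

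Counted over the list, more of the tested genes had a positive than a negative log2 fold change on HAMS against NP. There 22 of 31 were positive and 9 of 31 negative, with a median of 0.15, beside 48.3% negative and a median of 0.01 over all genes, and 11 of 31 (35.5%) had an unadjusted p under 0.05, beside 19.3% of all genes. Of these 11, 9 were higher on HAMS (Hmgcs1, Mvd, Fdps, Sqle, Cyp51, Sc5d, Srebf2, Insig2 and Stard4) and 2 lower (Nr1h3 and Mylip). On HAMSB against HAMS, 20 of 31 had a negative log2 fold change, with a median of -0.10, beside 49.1% negative and a median of 0.01 over all genes, and 5 of 31 (16.1%) had an unadjusted p under 0.05, beside 14.1% of all genes. Both comparisons use the same HAMS libraries. The median between HAMSB and HAMS was -0.06 without HAMS 6, and with libraries numbered 1 to 4 only it was -0.01 with 16 of 31 negative, beside 0.01 over all genes. With library totals in place of TMM factors it was -0.03, with 17 of 31 negative, beside 0.08 over all genes. The median between HAMS and NP was 0.07 by library totals, with 12 of 31 negative, beside -0.07 over all genes, and 0.04 with numbers 5 and 6 only, with 13 of 31 negative. Libraries did not overlap for 3 of 31 members between HAMSB and HAMS, 1 between HAMSA and HAMS, 4 between HAMSA and HAMSB, 1 between HAMSB and NP, 7 between HAMSA and NP and 5 between HAMS and NP. That is 9.68%, 3.23%, 12.9%, 3.23%, 22.6% and 16.1% of members, beside 7.3%, 4.01%, 8.81%, 5.27%, 16.4% and 12.6% of all genes.

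The rest of the pathway was looked at through 10 further lists, from isoprenoid enzymes and sterol transfer proteins to fatty acid targets of SREBP1 and the mTORC1 partners of the lysosomal sensor. Of 115 listed genes 113 were matched and 104 passed the filter. On HAMSB against HAMS 4 of 104 (3.85%, beside 1.68% of all genes) were called, all lower. These were Scd1, the stearoyl-CoA desaturase (1439 ± 115 against 2728 ± 404 CPM, SD, n = 4 each; log2 -0.92, edgeR adjusted p 0.00913), the fatty acid elongase Elovl5 (log2 -0.92, adjusted p 0.0256), Erlin1, a regulator of the degradation of sterol-sensing proteins (log2 -0.80, adjusted p 0.0190), and Lamtor3, a subunit of the lysosomal Ragulator (log2 -0.41, adjusted p 0.0247). Libraries of these 4 genes did not overlap between HAMSB and HAMS.

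On HAMS against NP 8 of 104 (7.69%, beside 4.33% of all genes) were called, 4 higher and 4 lower. Scd1 (2728 ± 404 against 1370.3 ± 115 CPM, SD, n = 4 each; log2 0.99, edgeR adjusted p 0.00445), Elovl5 (log2 0.91, adjusted p 0.0179), Erlin1 (log2 0.90, adjusted p 0.00668) and the oxysterol receptor Gpr183 (log2 0.38, adjusted p 0.0233) were higher. Lower were the lipoprotein receptor Lrp1 (log2 -1.52, adjusted p 0.00453), the LXR partner Rxra (log2 -0.96, adjusted p 0.0493), the apolipoprotein Apoe (log2 -0.70, adjusted p 0.0273) and Nprl3, a subunit of GATOR1 (log2 -0.46, adjusted p 0.0175). The macrophage markers given beside Nr1h3 moved the same way as Lrp1, Rxra and Apoe, and their part was not tested. Of the 8, only Rxra overlapped between HAMS and NP. None of the 104 was called by edgeR between HAMSA and HAMSB, HAMSA and HAMS, HAMSB and NP or HAMSA and NP. In these, 25, 12, 6 and 26 of the 104 had an unadjusted edgeR p under 0.05, beside 19.4%, 11.7%, 6.89% and 25.1% of all genes. DESeq2 called 0, 1, 2 and 5 of them, beside 576, 103, 124 and 1295 of all 15021 genes. The counts moved with single libraries: between HAMSB and HAMS 1 gene was called without HAMS 4, HAMSB 2 or HAMSB 6 and 2 without HAMS 6 or HAMSB 1. Between HAMS and NP 3 were called without NP 3, NP 4 or HAMS 6 and 4 without HAMS 4. Between HAMSA and HAMS 1 was called without HAMSA 6, and between HAMSA and NP 1 without HAMSA 3 or NP 1, in place of 0. Of all genes, the fits named here called 127 to 183 between HAMSB and HAMS and 235 to 309 between HAMS and NP. They called 26 between HAMSA and HAMS, and 161 and 203 between HAMSA and NP.

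Within diets, some members differed between libraries numbered 5 and 6 and those numbered 1 to 4, numbers that the labels do not call batches. Abca1 was 2.02 times as high in the number 6 library as in the others on HAMSA, 2.05 times in numbers 5 and 6 on HAMSB and 2.25 times on HAMS, while on NP number 5 was at 0.823 times the others. Nr1h3 ran the other way, at 0.316, 0.462, 0.463 and 0.706 times on HAMSA, HAMSB, HAMS and NP. Soat1 was at 1.39, 1.21, 1.38 and 0.939 times and Npc2 at 0.729, 0.622, 0.67 and 1.01 times on the same diets. Past 1.5-fold in either direction were 5 of 32 members on HAMSA, 3 on HAMSB, 5 on HAMS and 0 on NP, beside 23.6%, 21.1%, 23.9% and 12.8% of all genes, so the members' share was no higher than the background. Each mean rests on 1 to 3 libraries, and no test was made.

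**Figure D5:**
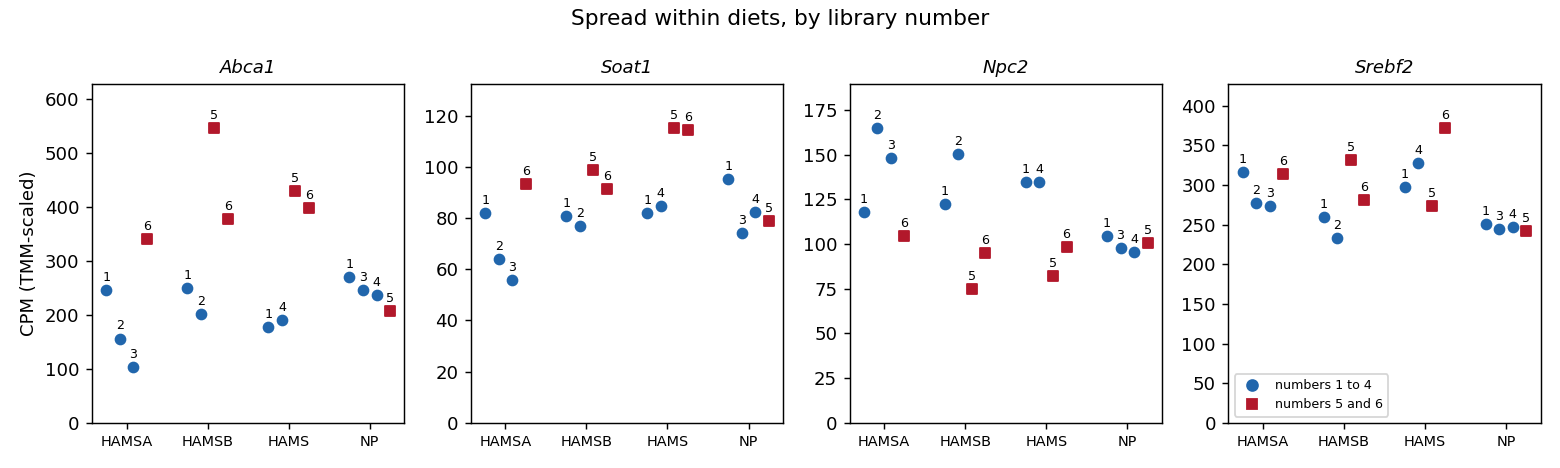
CPM of Abca1, Soat1, Npc2 and Srebf2 in each library by diet, with the library's number above it, squares for numbers 5 and 6 and circles for numbers 1 to 4, on axes that start at 0. Abca1 is about 2.02 to 2.25 times as high in the squares on HAMSA, HAMSB and HAMS, but not on NP.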

How the data were processed

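Reads came from 16 libraries of B cell poly(A) RNA, 4 on each of 4 diets. The authors deposited whole-number read counts per gene, on the reverse strand, in 1 table. Their processing used STAR, featureCounts of Subread, edgeR and limma, per the submitters' processing notes; versions and genome build are not given in the sources used here. Reads that the deposited counting summary lists as unassigned are no part of library sizes. Deposited counts were tested with edgeR 4.0.16 in R 4.3.3 (limma 3.58.1, DESeq2 1.42.0 as alternatives): genes kept by filterByExpr with a minimum count of 10, TMM factors, 1 quasi-likelihood fit over all 16 libraries with 12 residual degrees of freedom, and Benjamini-Hochberg adjustment over 15021 genes for each of 6 diet pairs. Intervals of log2 fold changes use those degrees of freedom. Alternatives were other scalings, filters, tools, library subsets and a replicate block. Procedures were tested on simulated data. The common biological coefficient of variation was 22.1%, which with 4 libraries a diet limits the precision.

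Lengths came from GENCODE M21 and promoters from RefSeq. Members and lists were chosen with earlier results of these data known. Values in every library are given for Gpr155, called members and members that mark the pathway's branches; other members are given by means or ranges. Genes of the further lists are named where called, at most 4 a list and comparison.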

Additional observations from a re-analysis of the deposited data

Results flagged for a closer look

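Of 128 sets of 4 libraries (32 genes on 4 diets), 7 held 1 library far from the other 3 by Dixon's criterion on the gap over the range, which chance meets in about 1 of 20. In the sterol enzymes, Sc5d had 20.3 CPM in HAMSA 6 beside 12.9 to 14.1 CPM in the other HAMSA libraries, and Cyp51 had 23.5 CPM in HAMSA 2 beside 18.5 to 18.9 CPM. Mylip had 153 CPM in HAMSA 2 beside 173 to 176 CPM. In the mevalonate enzymes, Mvd had 8.59 CPM in HAMSB 5 beside 10.6 to 10.8 CPM, and Fdps had 12.1 CPM in NP 5 beside 9.76 to 10.2 CPM. Idi1, which has the lowest level per length of the 32 genes, was far out in 2 sets, at 0.599 CPM in HAMSA 3 beside 1.99 to 2.20 CPM and at 1.70 CPM in HAMSB 1 beside 2.16 to 2.19 CPM.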

How the results depend on the processing

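The log2 fold changes of Sc5d and Cyp51 between HAMSB and HAMS and between HAMS and NP kept their sign under every setting run. The members' median, which was not tested, turned sign between HAMSB and NP (-0.04 with numbers 5 and 6 only) and between HAMSA and HAMSB (0.02 without HAMSA 3, 0.04 with numbers 5 and 6 only). With 1 library left out at a time, the members called were 1 to 2 between HAMSB and HAMS, 0 to 1 between HAMSA and HAMS, 0 to 2 between HAMSA and NP, 2 to 4 between HAMS and NP and 2 for any difference, and 0 between HAMSA and HAMSB and between HAMSB and NP. The 1 between HAMSA and HAMS came without HAMSA 6, and between HAMSA and NP there were 2 without HAMSA 6 and 1 without NP 1. Of all genes, the fits with 1 library left out called 127 to 240, 0 to 26, 0 to 589 and 235 to 703 in the first 4 comparisons. Genes of the further lists called were 1 to 4, 0 to 1, 0 to 1 and 3 to 10 in the same first 4 comparisons. The log2 fold changes ran from -0.66 to -0.49 (Cyp51) and -1.09 to -0.90 (Sc5d) between HAMSB and HAMS, and from 0.68 to 0.85 and 0.71 to 0.89 between HAMS and NP; Sc5d kept both calls and Cyp51 that against NP in 8 of 8 fits, and Cyp51 that between HAMSB and HAMS in 2 of 8.

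Between HAMSB and HAMS, Cyp51 had log2 -0.50 by library totals (adjusted p 0.0904), where Mylip was called beside Sc5d, -0.58 with no filter (0.0704) and -0.57 with only the diets compared (0.134), the last 2 settings leaving 1 called member. Numbers 1 to 4 only left 0 members (Cyp51 -0.46, adjusted p 0.24; Sc5d -0.68, 0.0756) and 0 further genes, and numbers 5 and 6 only left 1 member (Cyp51 -0.72, 0.151) and 2 further genes. Between HAMS and NP, numbers 5 and 6 only gave log2 fold changes of 0.86 for Cyp51 and 0.99 for Sc5d. They rest on NP 5 as the only NP library, so no calls are given for them. All these subsets have fewer libraries. Numbers 1 to 4 only gave 5 members and 13 further genes between HAMS and NP, beside 1250 of all 15350 genes tested. Between HAMSA and NP that subset gave 5 and 17, beside 2694 of 15350. DESeq2 called 6 members and 15 further genes between HAMS and NP (Fdps, Sqle, Srebf2 and Nr1h3 beside Sc5d and Cyp51), 2 and 5 between HAMSA and NP, 1 and 1 between HAMSA and HAMS, 3 members between HAMSB and HAMS (with Mylip), 1 member (Mylip) between HAMSA and HAMSB, 2 further genes between HAMSB and NP, and 5 members for any difference. Over all 15021 genes DESeq2 called 1264, 1295, 103, 602, 576 and 124 in the order of these diet pairs. Adjusted for each library's share of reads outside exons, 4 members and 14 further genes were called between HAMS and NP, beside 1157 of all 15021 genes. Between HAMSA and NP, a filter of 1 CPM in 4 libraries gave 1 member, and library totals or only the diets compared 1 further gene. Over all genes these settings called 238 of 13016, 344 of 15021 and 387 of 14302. Except where stated, the cause was not tested.

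Same-numbered libraries of different diets did not meet the criterion for pairing, a correlation of deviations over 0.1 in every pair: it was over 0.1 in 8 of 15 such pairs (median 0.189), against 29 of 81 other pairs (median -0.0583), so same-numbered libraries were more alike on median. Of 16 libraries, 2 were closest to one of their own number. The replicate block gave 2 called members between HAMSB and HAMS, 3 between HAMS and NP (with Nr1h3), and 1 and 5 further genes. Beside these, 163 and 378 of all 15021 genes were called. Depth limits Idi1 and Nr1h3 most, whose counts were as low as 9 and 8.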
